A study of Mus musculus with 12 samples.

Results

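The 10 chemokine ligand genes described here are Ccl1, Ccl3, Ccl4, Ccl5, Xcl1, Ccl17, Ccl22, Cxcl10, Ppbp and Pf4. They were taken by symbol from the 22180 genes that the array annotation names, and each had 1 row in the table. For the account that follows they were put into 3 groups, each by a cell type known to make its genes. The T cell group has 5 that activated T cells make (Ccl1, Ccl3, Ccl4, Ccl5 and Xcl1). Another 3 are made mainly by dendritic and other myeloid cells (Ccl17, Ccl22 and Cxcl10), and 2 are stored in platelets (Ppbp and Pf4). Ccl3 and Ccl4 are also known as macrophage inflammatory proteins. The groups are labels, and which cells made the transcripts here was not tested.

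Transcript levels were measured on 12 whole-transcript arrays of CD4+ T cells from the spleens of 8-week-old mice of the strain C57BL/6-Foxp3.GFP, in which a green fluorescent reporter marks cells that express Foxp3. Regulatory T cells (Treg, Foxp3+) and effector T cells (Teff, Foxp3-) were sorted from 3 kinds of material, which gives 6 groups of 2 arrays each, replicates 1 and B. The anti-CD3-CD28 Treg and Teff cells came from CD4+ cells treated for 3 days with 2 antibodies, each at 2 µg/ml. They were an antibody to CD3, which acts through the T cell receptor, and an antibody to CD28. The OX40L-JAG1 Treg and Teff cells came from CD4+ cells treated for 3 days with soluble OX40L at 5 µg/ml and soluble JAG1 at 1 µg/ml, ligands of the costimulatory receptor OX40 and of Notch that bypass the T cell receptor. The control Treg and Teff cells were fresh and untreated, so that 3 days of culture and the agents change together between treated and control cells. Treg and Teff cells were together in the treated cultures and were sorted by the reporter. The labels do not say whether the 2 arrays of a group came from separate mice or cultures, so the p-values reflect only how far these samples vary, possibly for technical reasons, and the number of arrays limits the precision.

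Chemokines are small secreted proteins that direct the movement of leukocytes through G protein-coupled receptors. Ccl3, Ccl4 and Ccl5 draw monocytes and activated T cells, Xcl1 draws dendritic cells that carry Xcr1, and Ccl1 is the ligand of Ccr8. Ccl17 and Ccl22 share the receptor Ccr4, which is high on Treg and type 2 helper cells, and Cxcl10 is an interferon-induced ligand of Cxcr3. Pf4 (platelet factor 4) and Ppbp (pro-platelet basic protein, the precursor of neutrophil-activating peptides that bind Cxcr2) are made in megakaryocytes and packed into platelet alpha granules. In the RefSeq gene table of GRCm38.p6, Ppbp and Pf4 are next to each other on chromosome 5, Ccl22 and Ccl17 are separated by Cx3cl1 alone on chromosome 8, and the records of Ccl3 and Ccl4 on chromosome 11 overlap, as does that of Cxcl10 with Art3 on chromosome 5.

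RefSeq promoters (GRCm38.p6, 250 bases before to 50 bases after the start) were found for 8 of the 10 genes. The 5 printed here belong to the neighbouring pairs whose values are set side by side, Ppbp with Pf4 and Ccl22 with Ccl17, and to Cxcl10. Over the 12 arrays Cxcl10 had a Pearson r of 0.22 (Ccl22) to 0.366 (Ccl17) with the genes of these pairs. Without the OX40L-JAG1 Teff arrays r was 0.518 (Pf4) to 0.728 (Ccl17). The promoters were searched on both strands for 6 motifs. The TATA box (TATAAA) is in 13.6% of all 32851 promoters of the table, the AP-1 motif (TGANTCA) in 7.81%, the STAT motif (TTCNNNGAA) in 8.30%, the interferon response motif (GAAANNGAA) in 8.56%, the NF-kappaB consensus in 4.51% and the NFAT core (GGAAA) in 61.3%. Capitals mark matches to any of them except the NFAT core, which can lie inside the NF-kappaB and interferon response motifs.
Ppbp, chr5:90768268-90768567, plus strand: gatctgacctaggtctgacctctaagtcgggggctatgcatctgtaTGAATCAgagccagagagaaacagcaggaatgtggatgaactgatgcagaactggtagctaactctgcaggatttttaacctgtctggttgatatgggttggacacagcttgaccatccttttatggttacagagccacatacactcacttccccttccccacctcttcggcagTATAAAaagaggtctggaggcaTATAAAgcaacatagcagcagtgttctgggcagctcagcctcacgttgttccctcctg
Pf4, chr5:90772185-90772484, plus strand: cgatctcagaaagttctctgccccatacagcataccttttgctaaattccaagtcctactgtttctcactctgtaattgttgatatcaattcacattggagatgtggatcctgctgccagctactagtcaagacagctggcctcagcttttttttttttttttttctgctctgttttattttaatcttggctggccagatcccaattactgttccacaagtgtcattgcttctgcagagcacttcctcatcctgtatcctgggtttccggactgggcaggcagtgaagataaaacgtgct
Ccl22, chr8:94745434-94745733, plus strand: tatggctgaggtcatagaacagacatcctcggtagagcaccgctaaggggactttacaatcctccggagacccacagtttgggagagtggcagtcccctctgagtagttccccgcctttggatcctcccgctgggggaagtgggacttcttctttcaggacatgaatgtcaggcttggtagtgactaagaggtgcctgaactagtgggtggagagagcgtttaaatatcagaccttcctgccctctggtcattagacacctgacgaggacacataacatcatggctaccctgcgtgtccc
Ccl17, chr8:94810203-94810502, plus strand: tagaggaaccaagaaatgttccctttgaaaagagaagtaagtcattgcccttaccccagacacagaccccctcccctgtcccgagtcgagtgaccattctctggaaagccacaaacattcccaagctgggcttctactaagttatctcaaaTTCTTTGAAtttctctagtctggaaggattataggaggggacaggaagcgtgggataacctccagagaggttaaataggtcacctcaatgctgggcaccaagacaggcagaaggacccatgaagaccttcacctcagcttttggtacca
Cxcl10, chr5:92348840-92349139, minus strand: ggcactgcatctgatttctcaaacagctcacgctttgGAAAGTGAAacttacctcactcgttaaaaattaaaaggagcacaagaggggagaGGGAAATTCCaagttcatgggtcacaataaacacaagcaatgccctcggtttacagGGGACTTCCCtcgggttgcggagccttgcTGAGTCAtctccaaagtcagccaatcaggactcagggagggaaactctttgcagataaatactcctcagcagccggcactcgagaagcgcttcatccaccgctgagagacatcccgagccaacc
The Ppbp window held 2 TATA boxes, at -30 to -25 and -8 to -3 from the start, and an AP-1 match at -204 to -198. The Pf4 window held none of the capitalised motifs. The Ccl22 window held none of the 6, and that of Ccl17 a STAT match at -99 to -91. The Cxcl10 window held 2 NF-kappaB matches, at -159 to -150 and -103 to -94, an interferon response match at -213 to -205 and an AP-1 match at -74 to -68. A match is a description of letters, and a window without one says nothing of the factor.

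All values are log2 intensities, and all differences are between group means on that scale, with the standard error (SE) of a model fitted with limma over the 12 arrays and all 22180 genes. A difference counts as a rise or fall where its Benjamini-Hochberg adjusted p over all genes of the comparison is under 0.05. The lowest of the 12 array medians was 4.87 and served as a bound for dim signal, since no detection call was used. A group mean under it may be near background, so that a difference from such a group may understate the change. The pair of OX40L-JAG1 Teff arrays differed from the rest in quality. Their replicates correlated at 0.881 across genes, against 0.984 to 0.994 in the other 5 groups, and their SD over genes was 1.49 and 1.71, against 1.95 to 2.19. Since the model shares its spread over all groups, the comparisons that do not need these arrays are also given without them. Where markers of other cell types are given, fewer cells of a type and less RNA per cell cannot be told apart in these bulk samples.

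**Figure D1:**
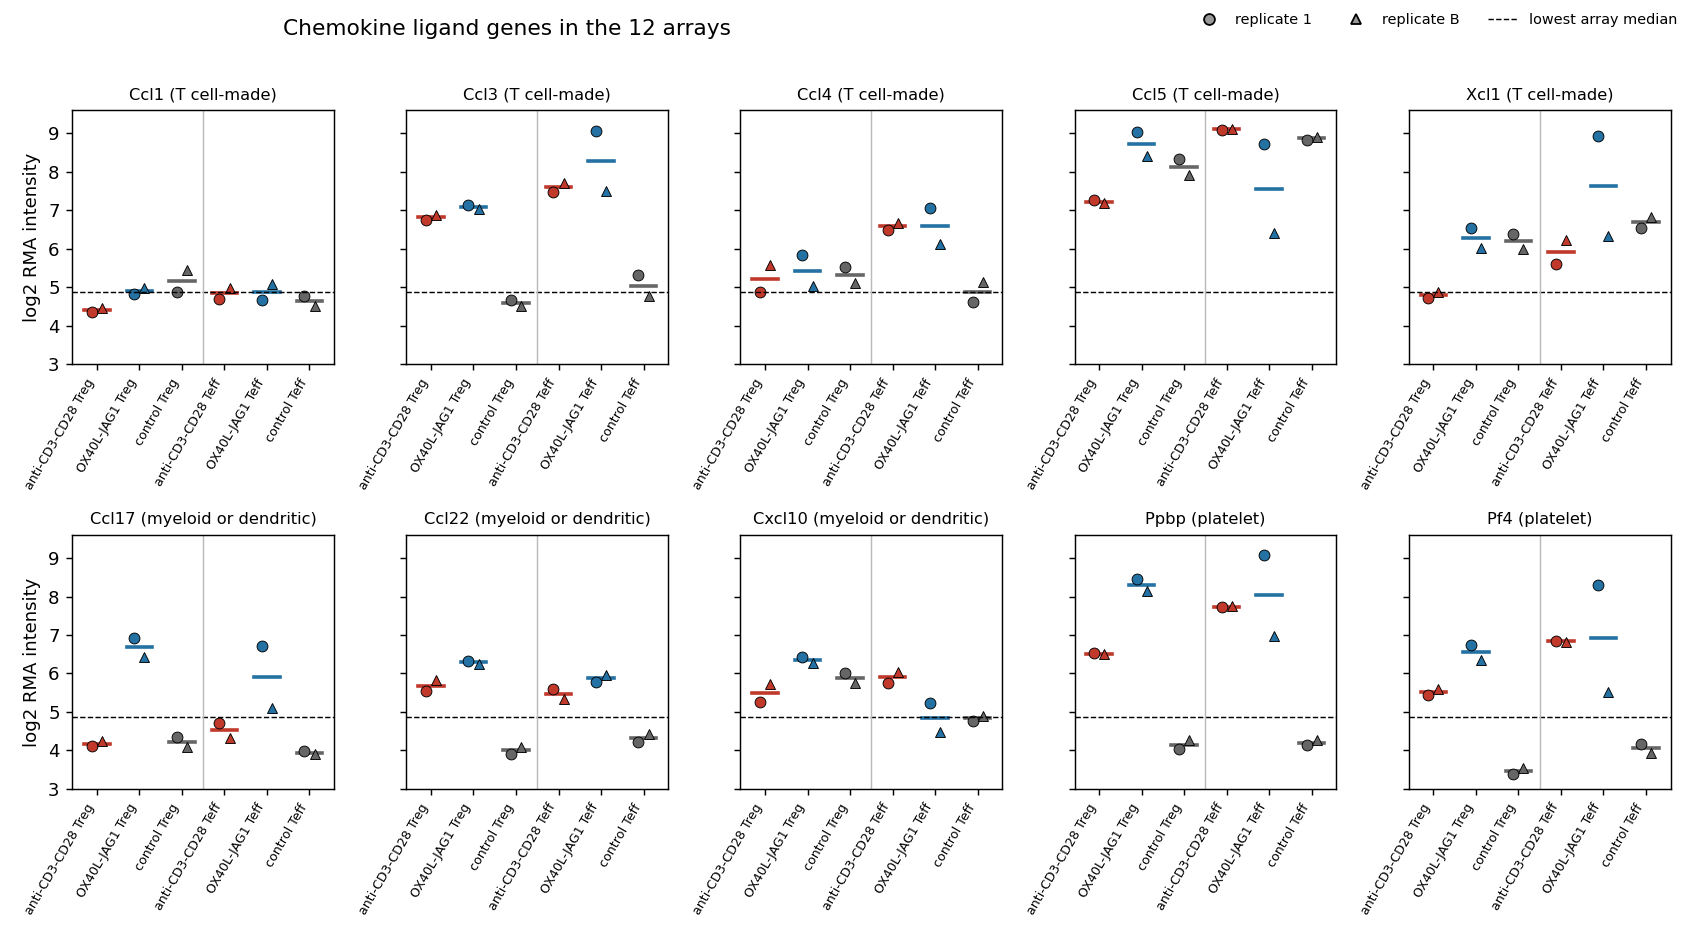
Log2 intensity of each of the 10 genes on the 12 arrays: circles are replicate 1, triangles replicate B, bars the group mean, and the dashed line the lowest array median (4.87). Ppbp and Pf4 lie under the line on all 4 control arrays and above it on all 8 treated ones, Ccl17 is above it only on the 4 OX40L-JAG1 arrays, and Ccl1 stays near it throughout.

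Of the 5 chemokines of the T cell group, Ccl3 rose in all 4 treated groups and Ccl4 rose in Teff cells under both treatments. The other 3 did not pass against control cells in the fit over all arrays. With the OX40L-JAG1 Teff arrays left out, Ccl1, Ccl5 and Xcl1 were lower in anti-CD3-CD28 Treg than in control Treg cells, and Xcl1 in anti-CD3-CD28 Teff than in control Teff cells (adjusted p = 0.0305). Ccl3 (macrophage inflammatory protein 1-alpha) measured 6.75 and 6.89 in Treg cells with anti-CD3-CD28 and 7.13 and 7.04 in OX40L-JAG1 Treg cells, against 4.67 and 4.51 in control Treg cells. In Teff cells it measured 7.48 and 7.72 with anti-CD3-CD28 and 9.08 and 7.50 with OX40L-JAG1, against 5.31 and 4.77 in control cells. No treated array overlapped a control array of the same cell type. The differences from control were 2.23 ± 0.40 for anti-CD3-CD28 Treg cells (SE, adjusted p = 0.00364), 2.49 ± 0.40 for OX40L-JAG1 Treg cells (0.0084), 2.56 ± 0.40 for anti-CD3-CD28 Teff cells (0.00129) and 3.25 ± 0.40 for OX40L-JAG1 Teff cells (0.000122). The control Treg mean of 4.59 is under the lowest array median. Leaving out any 1 of the 4 arrays compared ended the call for the OX40L-JAG1 Treg rise (adjusted p 0.0783 to 0.11), and the other 3 rises held without any 1 of the 12 arrays. The difference between anti-CD3-CD28 and OX40L-JAG1 Treg cells, -0.26 (95% interval -1.13 to 0.61), did not pass (0.867).

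Ccl4 (macrophage inflammatory protein 1-beta), the neighbour of Ccl3, differed between the cell types after treatment, while their control arrays overlapped. It measured 4.88 and 5.57 in anti-CD3-CD28 Treg, 5.83 and 5.03 in OX40L-JAG1 Treg and 5.53 and 5.10 in control Treg cells, so the 3 Treg groups overlapped. In Teff cells it measured 6.50 and 6.68 with anti-CD3-CD28 and 7.06 and 6.12 with OX40L-JAG1, against 4.62 and 5.14 in control cells, and all 4 treated arrays lay above both control arrays. The rise was 1.71 ± 0.37 under each treatment, with an adjusted p of 0.00949 for anti-CD3-CD28 and 0.00371 for OX40L-JAG1. In Treg cells the differences were -0.09 ± 0.37 (0.923) and 0.11 ± 0.37 (0.984). The response of Treg cells minus that of Teff cells was -1.80 ± 0.53 for anti-CD3-CD28 (adjusted p = 0.0454) and -1.59 ± 0.53 for OX40L-JAG1 (0.0396). The anti-CD3-CD28 value was not called on leaving out any 1 of the 8 arrays compared (0.0624 to 0.173). The OX40L-JAG1 value was not called without 8 of the 12 arrays taken singly (0.0549 to 0.154), the exceptions being both anti-CD3-CD28 Treg arrays, OX40L-JAG1 Treg replicate 1 and OX40L-JAG1 Teff replicate B. The rise in anti-CD3-CD28 Teff cells was lost without either anti-CD3-CD28 Teff array or control Teff replicate 1 (0.0536 to 0.099). Other settings ended these calls too: for the anti-CD3-CD28 difference of responses a common median (0.062), quantile normalisation (0.0634) and all rows tested (0.0571). For the OX40L-JAG1 difference of responses they were a common median (0.0803), array weights (0.118) and only the arrays compared (0.0698). Array weights (0.0637) and only the arrays compared (0.0513) ended the call for the rise in OX40L-JAG1 Teff cells.

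Ccl5 (RANTES) was well above the lowest array median in fresh cells of both types. It measured 7.26 and 7.19 in anti-CD3-CD28 Treg cells, 9.04 and 8.41 in OX40L-JAG1 Treg cells and 8.33 and 7.91 in control Treg cells. Teff values were 9.10 and 9.12 with anti-CD3-CD28, 8.72 and 6.40 with OX40L-JAG1 and 8.82 and 8.92 in control cells. The anti-CD3-CD28 Treg arrays lay below all other arrays except OX40L-JAG1 Teff replicate B. Their difference from anti-CD3-CD28 Teff cells was -1.88 ± 0.54 (adjusted p = 0.0465), while that from control Treg cells, -0.89 ± 0.54, did not pass (0.39). Without the OX40L-JAG1 Teff arrays the fit gave adjusted p = 0.00958 for the comparison with control Treg cells and 0.000452 for the difference of -1.50 from OX40L-JAG1 Treg cells. The call against anti-CD3-CD28 Teff cells was lost on leaving out any single array other than the OX40L-JAG1 Teff ones (adjusted p 0.0672 to 0.204), and with a common median (0.0556). Against control Teff cells the OX40L-JAG1 Teff difference was -0.15 with replicate 1 alone and -2.47 with replicate B alone.

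Xcl1 (lymphotactin) was likewise present in fresh cells and low in anti-CD3-CD28 Treg cells. It measured 4.72 and 4.87 there, against 6.53 and 6.02 in OX40L-JAG1 Treg and 6.39 and 5.99 in control Treg cells. In Teff cells the values were 5.60 and 6.22 with anti-CD3-CD28, 8.93 and 6.33 with OX40L-JAG1 and 6.53 and 6.84 in control cells. The anti-CD3-CD28 Treg mean of 4.79 was under the lowest array median, and no other group mean was. Its difference from control Treg cells of -1.40 ± 0.61 did not pass in the fit over all arrays (adjusted p = 0.206), and did without the OX40L-JAG1 Teff arrays (0.00134). Single arrays decided the OX40L-JAG1 Teff value: the difference from control Teff cells was 2.25 with replicate 1 alone (adjusted p = 0.000121) and -0.35 with replicate B alone (0.316). Ccl1 (known as TCA3, the ligand of Ccr8) ranged from 4.35 to 5.45 over the 12 arrays, with 7 of them under the lowest array median, and passed the test in no comparison of the full fit. Its lowest values, 4.35 and 4.45, were those of anti-CD3-CD28 Treg cells, against 4.87 and 5.45 in control Treg cells (-0.76 ± 0.24, adjusted p = 0.0747, and 0.0193 without the OX40L-JAG1 Teff arrays).

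Of the 3 chemokines made mainly by dendritic and myeloid cells, Ccl22 rose in all 4 treated groups, Ccl17 rose with OX40L-JAG1 in both cell types, and Cxcl10 rose only in anti-CD3-CD28 Teff cells by the test against control. Ccl17 (TARC) measured 4.11 and 4.23 in Treg cells with anti-CD3-CD28 and 6.93 and 6.43 in OX40L-JAG1 Treg cells, against 4.36 and 4.08 in control Treg cells. The OX40L-JAG1 arrays lay above all the others in Treg cells, and the other 4 overlapped. In Teff cells the values were 4.71 and 4.33 with anti-CD3-CD28 and 6.71 and 5.10 with OX40L-JAG1, against 3.97 and 3.90 in control cells. The rise with OX40L-JAG1 was 2.46 ± 0.41 in Treg cells (adjusted p = 0.0111) and 1.96 ± 0.41 in Teff cells (0.00278). Anti-CD3-CD28 cells did not pass the test against control (-0.05 ± 0.41 in Treg cells, adjusted p = 0.966, and 0.59 ± 0.41 in Teff cells, 0.403), although the Teff arrays did not overlap with control and passed without the OX40L-JAG1 Teff arrays (0.045). Directly compared, anti-CD3-CD28 cells had less Ccl17 than OX40L-JAG1 cells, by -2.51 ± 0.41 in Treg cells (0.00304) and -1.38 ± 0.41 in Teff cells (0.0278). The means of all 4 control and anti-CD3-CD28 groups were under the lowest array median. Leaving out any 1 of the 4 arrays compared ended the call for the OX40L-JAG1 Treg rise (adjusted p 0.0705 to 0.135). The direct comparison in Treg cells was lost only without OX40L-JAG1 Treg replicate 1 (0.0507), and that in Teff cells without either anti-CD3-CD28 Teff array or OX40L-JAG1 Teff replicate 1 (0.064 to 0.162). Quantile normalisation over the tested genes ended the call for the OX40L-JAG1 Treg rise (0.109) and both direct comparisons (0.0593 and 0.102), and a fit of the OX40L-JAG1 and control Teff arrays alone that for the OX40L-JAG1 Teff rise (0.0721). The direct comparison in Teff cells was also lost with array weights (0.0912) and with only the arrays compared (0.203).

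Ccl22 (MDC), the other Ccr4 ligand, measured 5.54 and 5.83 in Treg cells with anti-CD3-CD28 and 6.33 and 6.25 in OX40L-JAG1 Treg cells, against 3.91 and 4.08 in control Treg cells. In Teff cells it measured 5.61 and 5.33 with anti-CD3-CD28 and 5.79 and 5.97 with OX40L-JAG1, against 4.21 and 4.44 in control cells. All 8 treated arrays exceeded all 4 control arrays, and replicates were close together in every group, OX40L-JAG1 Teff included. The rise was 1.69 ± 0.20 in anti-CD3-CD28 Treg cells (adjusted p = 0.000211), 2.30 ± 0.20 in OX40L-JAG1 Treg cells (0.000298), 1.14 ± 0.20 in anti-CD3-CD28 Teff cells (0.00256) and 1.55 ± 0.20 in OX40L-JAG1 Teff cells (0.000154). Each of these 4 calls held on leaving out any 1 of the 12 arrays. The difference between the responses of Ccl17 and Ccl22 was not tested.

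Cxcl10 (IP-10) differed between the cell types in its response to anti-CD3-CD28. It measured 5.25 and 5.72 in anti-CD3-CD28 Treg, 6.43 and 6.26 in OX40L-JAG1 Treg and 6.01 and 5.76 in control Treg cells. In Teff cells it measured 5.76 and 6.05 with anti-CD3-CD28, 5.22 and 4.47 with OX40L-JAG1 and 4.77 and 4.90 in control cells. It rose by 1.07 ± 0.27 in anti-CD3-CD28 Teff cells relative to control (adjusted p = 0.0184) and was 1.06 ± 0.27 above OX40L-JAG1 Teff cells (0.0136), whereas the Treg difference from control was -0.40 ± 0.27 (0.438). The anti-CD3-CD28 response of Treg cells minus that of Teff cells was -1.47 ± 0.38 (0.0269). OX40L-JAG1 Treg cells had more Cxcl10 than OX40L-JAG1 Teff cells, by 1.50 ± 0.27 (0.00144), and control Treg cells more than control Teff cells by 1.05 ± 0.27, which missed the threshold (0.0541) and passed without the OX40L-JAG1 Teff arrays (0.00366). The means of OX40L-JAG1 and control Teff cells, 4.85 and 4.83, were under the lowest array median. Leaving out any 1 of the 4 arrays compared ended the call for the rise in anti-CD3-CD28 Teff cells (0.0571 to 0.127). The call against OX40L-JAG1 Teff cells was lost without anti-CD3-CD28 Teff replicate B (0.104), and the difference of responses without any 1 of the 8 arrays compared except anti-CD3-CD28 Treg replicate B (0.0606 to 0.119). Quantile normalisation ended the calls for the rise (0.0701) and the difference of responses (0.104). Array weights ended the call against OX40L-JAG1 Teff cells, as did a fit of only the arrays compared. Such a fit also ended the call for more Cxcl10 in Treg than in Teff cells under OX40L-JAG1.

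Both platelet chemokines were higher on all 8 arrays of cultured cells than on all 4 of fresh cells, with either treatment, and 7 of their 8 differences from control passed the test. Ppbp had the largest span of group means of the 10 genes (4.16), with 6.52 and 6.50 in Treg cells with anti-CD3-CD28 and 8.47 and 8.14 in OX40L-JAG1 Treg cells, against 4.03 and 4.26 in control Treg cells. In Teff cells it measured 7.72 and 7.76 with anti-CD3-CD28 and 9.09 and 6.97 with OX40L-JAG1, against 4.13 and 4.27 in control cells. Every treated array exceeded every control array by more than 2 log2 units. The rise was 2.37 ± 0.49 in anti-CD3-CD28 Treg cells (adjusted p = 0.00887), 4.16 ± 0.49 in OX40L-JAG1 Treg cells (0.00138), 3.54 ± 0.49 in anti-CD3-CD28 Teff cells (0.000644) and 3.83 ± 0.49 in OX40L-JAG1 Teff cells (0.000151). Leaving out any 1 of the 4 arrays compared ended the call for the smallest of these, that of anti-CD3-CD28 Treg cells (0.0556 to 0.0765), and the other 3 rises held without any 1 of the 12 arrays.

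Pf4 measured 5.44 and 5.59 in Treg cells with anti-CD3-CD28 and 6.74 and 6.35 in OX40L-JAG1 Treg cells, against 3.39 and 3.53 in control Treg cells. Its Teff values were 6.85 and 6.82 with anti-CD3-CD28 and 8.31 and 5.52 with OX40L-JAG1, against 4.17 and 3.94 in control cells, again with no overlap between treated and control arrays. The rise was 3.08 ± 0.62 in OX40L-JAG1 Treg cells (adjusted p = 0.0336), 2.78 ± 0.62 in anti-CD3-CD28 Teff cells (0.011) and 2.86 ± 0.62 in OX40L-JAG1 Teff cells (0.00368). In anti-CD3-CD28 Treg cells the difference of 2.05 ± 0.62 did not pass (0.0631), and passed without the OX40L-JAG1 Teff arrays (4.85e-06). The Pf4 call in OX40L-JAG1 Treg cells was lost on leaving out any 1 array other than the OX40L-JAG1 Teff ones (0.0663 to 0.236), and that in anti-CD3-CD28 Teff cells on leaving out any 1 of the 4 arrays compared (0.0597 to 0.0842). Quantile normalisation ended the OX40L-JAG1 Treg call too (0.131), and a fit of the OX40L-JAG1 and control Teff arrays alone the OX40L-JAG1 Teff call (0.0899). Control means of both genes, 3.46 to 4.20, were under the lowest array median in both cell types. Between anti-CD3-CD28 and OX40L-JAG1 Treg cells the difference was -1.79 ± 0.49 for Ppbp (0.0563) and -1.03 ± 0.62 for Pf4 (0.521). Neither passed in the fit over all arrays, and both passed without the OX40L-JAG1 Teff arrays (1.71e-05 and 0.00146). The 2 OX40L-JAG1 Teff arrays lay on either side of the anti-CD3-CD28 Teff arrays for both genes, so the order of these Teff groups rests on single arrays: with replicate 1 alone the difference of anti-CD3-CD28 from OX40L-JAG1 Teff cells was -1.35 for Ppbp and -1.48 for Pf4, and with replicate B alone 0.77 and 1.31.

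**Figure D2:**
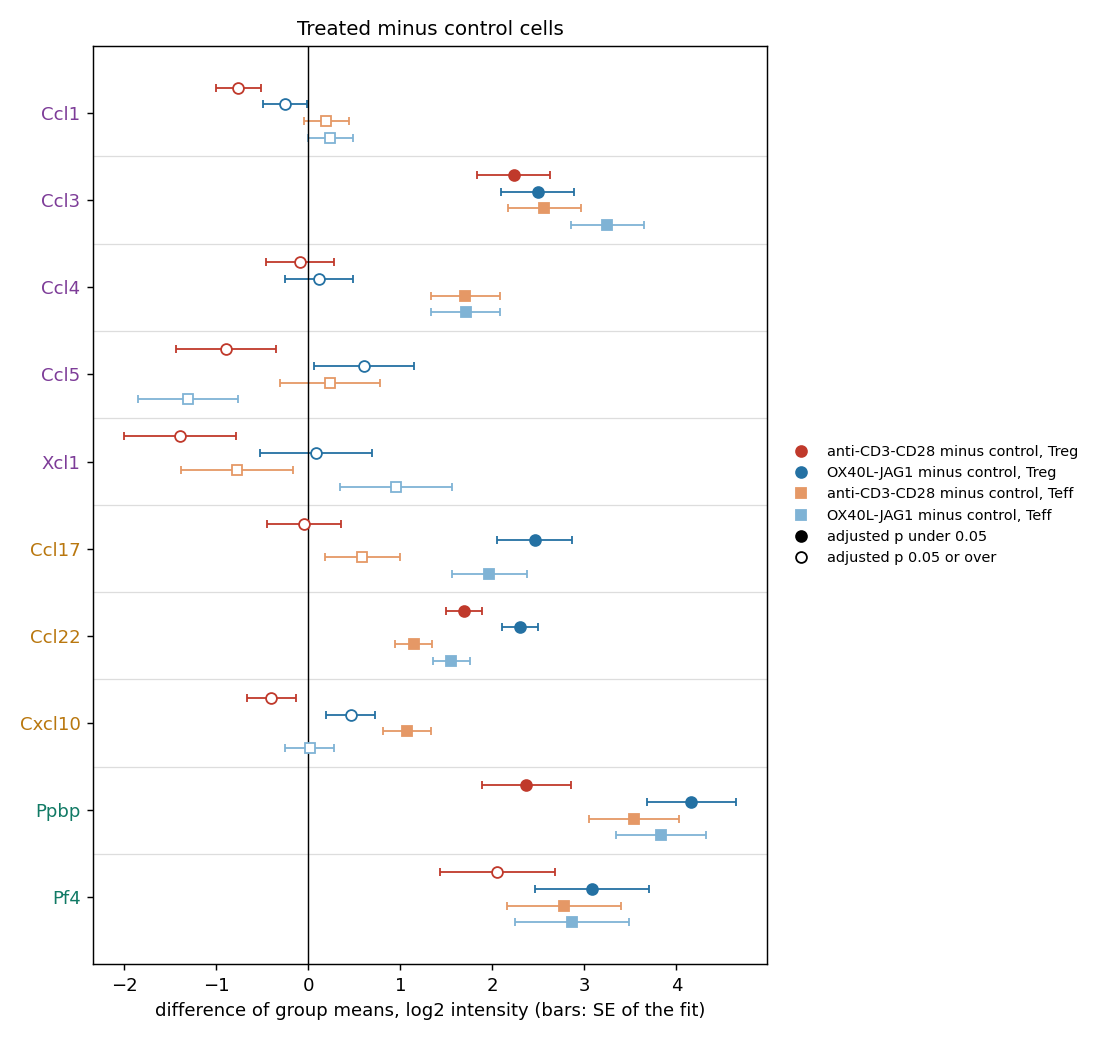
Difference of each treated group from the control cells of the same type, as log2 intensity with the SE of the fit; filled symbols have an adjusted p under 0.05, circles are Treg and squares Teff cells. Gene names are purple for chemokines of T cells, brown for those of myeloid and dendritic cells and green for those of platelets. Ccl3, Ccl22 and Ppbp are filled in all 4 comparisons, Ccl4 only in Teff cells and Ccl17 only with OX40L-JAG1.

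By counts, OX40L-JAG1 Treg cells against control Treg cells had 5 of the 10 genes higher (Ppbp, Pf4, Ccl3, Ccl17 and Ccl22), where 0.996% of all genes were higher and 0.559% lower. They were 1 of 5 genes of T cells, 2 of 3 of myeloid and dendritic cells and 2 of 2 of platelets, with median differences of 0.11, 2.30 and 3.62 against -0.01 over all genes. Anti-CD3-CD28 Treg cells against control Treg cells had 3 higher (Ppbp, Ccl3 and Ccl22), where 8.08% of all genes were higher and 1.97% lower. The medians were -0.76 for the genes of T cells, -0.05 for those of myeloid and dendritic cells and 2.21 for those of platelets, against -0.05 over all genes. Without the OX40L-JAG1 Teff arrays the first comparison kept a count of 5, where 5.41% of all genes were called in either direction, and the second had 4 higher and 3 lower (Xcl1, Ccl5 and Ccl1), where 21.5% were called. The direct comparison of anti-CD3-CD28 with OX40L-JAG1 Treg cells had 1 lower, Ccl17, where 4.73% of all genes were higher and 1.18% lower. With those arrays left out it had 7 lower and none higher, where 13.9% were called, and the exceptions were Ccl1, Ccl3 and Ccl4.

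In Teff cells the shares over all genes were larger. OX40L-JAG1 Teff against control Teff cells had 6 of the 10 genes higher (Ppbp, Ccl3, Pf4, Ccl17, Ccl4 and Ccl22), where 20.0% of all genes were higher and 26.9% lower and the median over all genes was 0.18, which the members' differences include. The 6 passed with either replicate of OX40L-JAG1 Teff alone, with a rise in Ppbp of 4.89 with replicate 1 and 2.77 with replicate B, and in Ccl22 of 1.46 and 1.65. Anti-CD3-CD28 Teff against control Teff cells had 6 higher (Ppbp, Pf4, Ccl3, Ccl4, Ccl22 and Cxcl10), where 5.44% of all genes were higher and 9.75% lower. Once the OX40L-JAG1 Teff arrays were left out these were 7 higher, Ccl17 included, and 1 lower, Xcl1, where 28.9% were called. Anti-CD3-CD28 against OX40L-JAG1 Teff cells had 1 higher (Cxcl10) and 1 lower (Ccl17), where 18.9% of all genes were higher and 9.15% lower. The comparisons with control Treg cells share those control arrays, as do the comparisons with control Teff cells.

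Between the cell types, none of the 10 genes passed between control Treg and control Teff cells in the limma fit over all arrays (1 at an unadjusted p under 0.05, Cxcl10), where 1.34% of all genes were higher and 2.51% lower. With the OX40L-JAG1 Teff arrays left out 3 were called, Cxcl10 higher and Ccl5 and Pf4 lower in control Treg cells, where 14.5% of all genes were. OX40L-JAG1 Treg against OX40L-JAG1 Teff cells had 1 higher (Cxcl10) and 2 lower, Ccl3 by -1.20 ± 0.40 (adjusted p = 0.0319) and Ccl4 by -1.16 ± 0.37 (0.0288), where 24.6% of all genes were higher and 16.5% lower. Anti-CD3-CD28 Treg against anti-CD3-CD28 Teff cells had 2 lower, Ccl5 by -1.88 ± 0.54 (0.0465) and Ccl4 by -1.36 ± 0.37 (0.0366), where 9.03% of all genes were higher and 2.89% lower. Single arrays mattered to these calls: that of Ccl4 in anti-CD3-CD28 cells was lost without any 1 of the anti-CD3-CD28 or control arrays (0.053 to 0.265), that of Ccl3 in OX40L-JAG1 cells without either OX40L-JAG1 Treg array or OX40L-JAG1 Teff replicate 1 (0.0993 to 0.147), and that of Ccl4 there without OX40L-JAG1 Treg replicate B (0.218) or OX40L-JAG1 Teff replicate 1 (0.123). A common median also ended all 3 of these calls (0.0508 to 0.0757). In OX40L-JAG1 cells array weights ended the calls of Ccl3 (0.114) and Ccl4 (0.24), and so did only the arrays compared (0.18 and 0.142). The call of Cxcl10 there was lost with only the arrays compared. Between anti-CD3-CD28 Treg and Teff cells the 2 platelet genes did not pass, with -1.23 ± 0.49 for Ppbp (0.13) and -1.32 ± 0.62 for Pf4 (0.199). Without the OX40L-JAG1 Teff arrays 6 were lower in anti-CD3-CD28 Treg than Teff cells (Ccl3, Ccl4, Ccl5, Xcl1, Ppbp and Pf4), where 28.7% of all genes were called. The difference between the responses of Treg and Teff cells passed for 1 gene with OX40L-JAG1 (Ccl4), where 31.5% of all genes passed, and for 2 with anti-CD3-CD28 (Ccl4 and Cxcl10), where 13.1% did. Left without those arrays, the anti-CD3-CD28 interaction was called for 6 genes, all lower in Treg cells, where 31.0% of all genes were called.

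**Figure D3:**
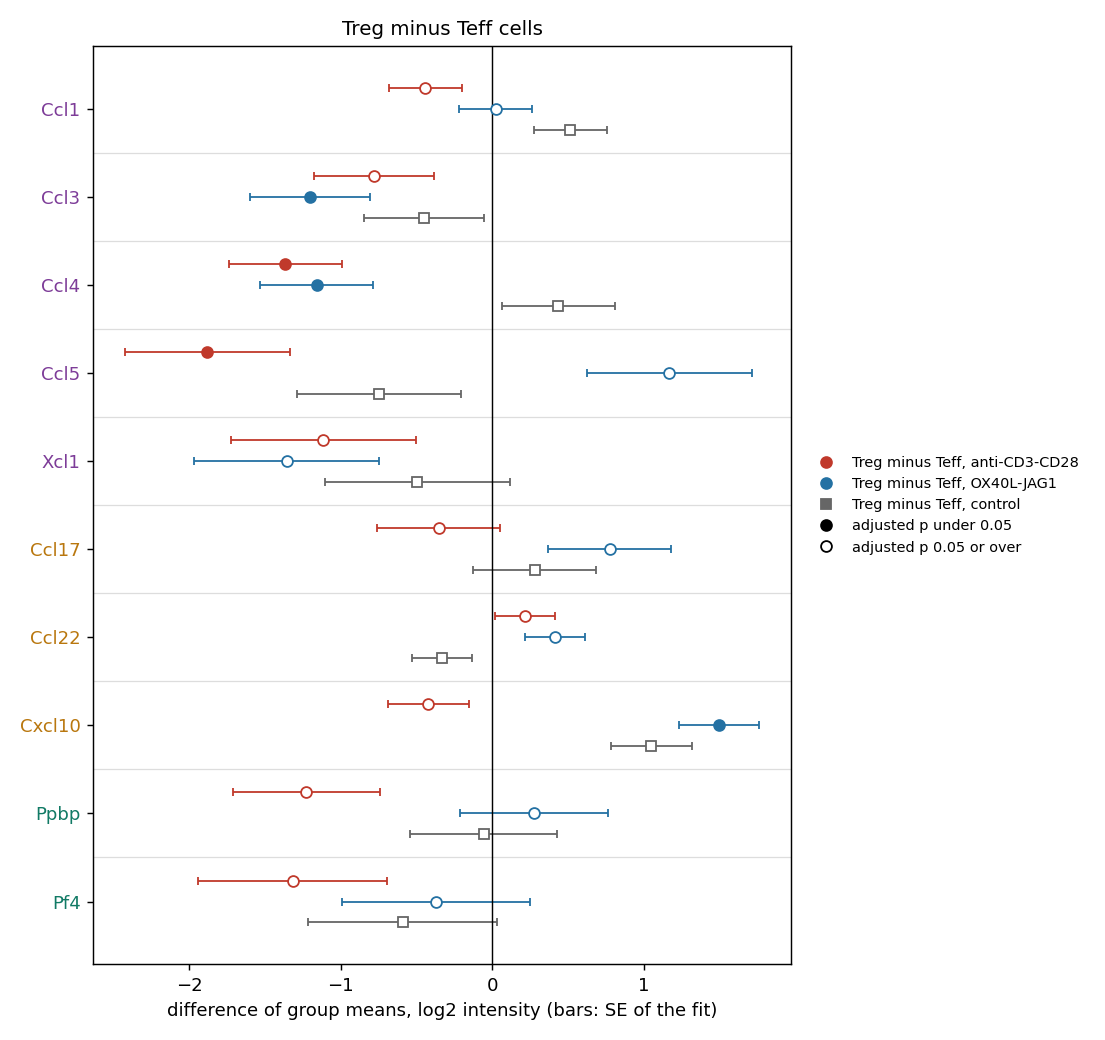
Difference of Treg from Teff cells within each treatment and in control cells, as log2 intensity with the SE of the fit; filled symbols have an adjusted p under 0.05, and gene names are coloured by group as in the plot of responses. Ccl4 is lower in Treg cells under both treatments, and Cxcl10 is higher in OX40L-JAG1 Treg cells.

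Over the 12 arrays, Ppbp and Pf4 followed each other (Pearson r = 0.969, and 0.975 over the 10 arrays without OX40L-JAG1 Teff), and Ccl3 followed both (r = 0.963 with Pf4 and 0.940 with Ppbp). Ccl22 was nearer to Ppbp (0.905) than to Ccl17 (0.697), the gene of its own receptor pair. Ccl5 and Xcl1 gave 0.413 over 12 arrays and 0.783 over the 10. These values describe 12 arrays that fall into 6 groups of 2 and share the contrast of cultured with fresh cells. Among all genes whose group means span at least 2 log2 units, members left out, the most like Ppbp were Gpnmb (a transmembrane glycoprotein of macrophages, r = 0.973), Apol7c (an apolipoprotein L family gene, 0.941) and Ly6i (a Ly6 family gene, 0.905). Gpnmb and Apol7c were also among the 3 most like Ccl3, Ccl22 and Pf4, with Thbs1 (thrombospondin 1, a matrix protein also stored in platelets) heading the list of Ccl3 (0.918) and also on that of Pf4 (0.886). Ccl17 was most like Clec4n (Dectin-2, 0.955), Mmp12 (macrophage elastase, 0.937) and Clec7a (Dectin-1, 0.917), and Xcl1 like Retnlg (0.896) and Ms4a3 (0.886), genes of granulocytes and their precursors, and Btk (0.883), a kinase of B and myeloid cells. Xcl1 was highest, at 8.93, on OX40L-JAG1 Teff replicate 1. Gpnmb means were 6.20 in anti-CD3-CD28 Treg, 7.43 in OX40L-JAG1 Treg and 4.97 in control Treg cells, whereas those of Clec4n were 3.96 in anti-CD3-CD28 Treg, 6.61 in OX40L-JAG1 Treg and 4.03 in control Treg cells.

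**Figure D4:**
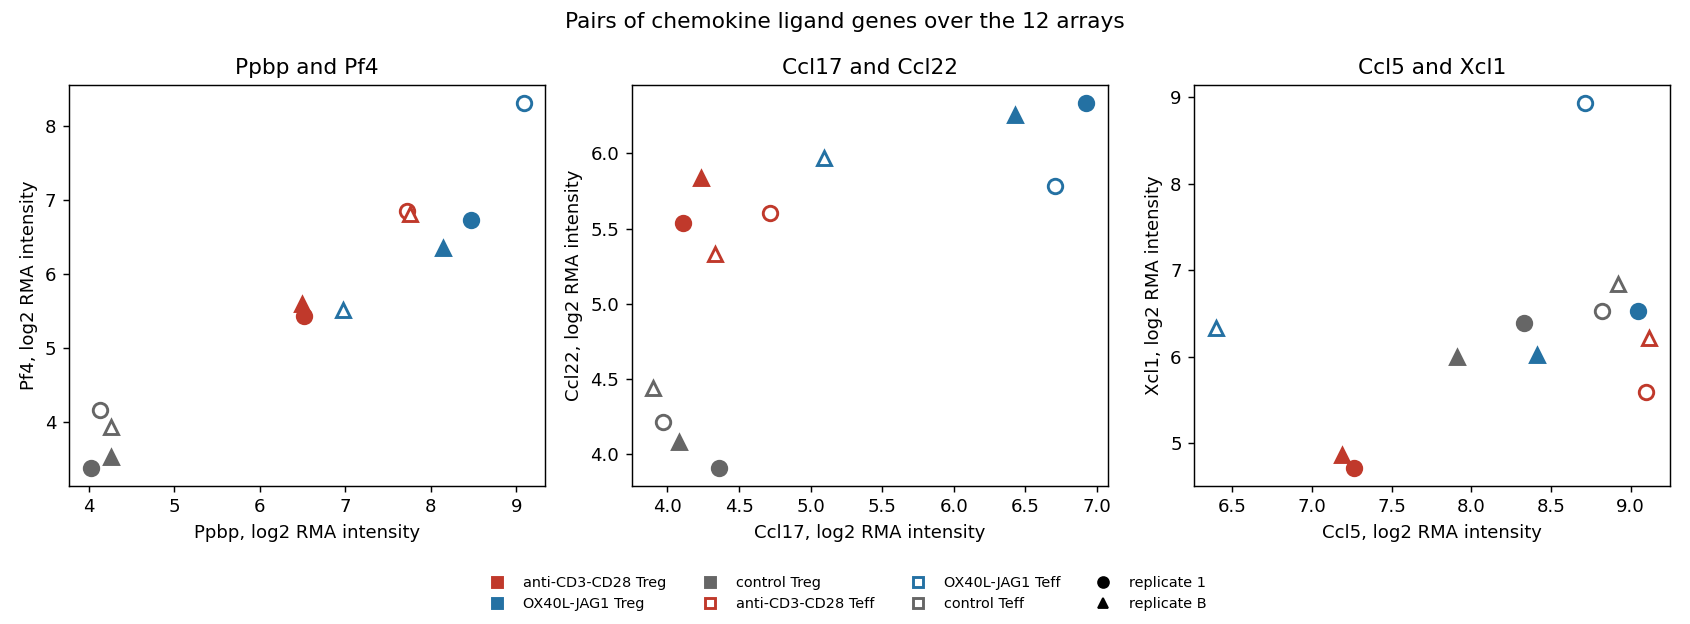
Log2 intensities of 3 pairs of genes on the 12 arrays, filled for Treg and open for Teff cells, circles for replicate 1 and triangles for replicate B. Ppbp and Pf4 lie along 1 line, the anti-CD3-CD28 arrays lie at 5.33 to 5.83 for Ccl22 and at 4.11 to 4.71 for Ccl17, and the OX40L-JAG1 Teff replicates lie far apart for Ccl5 and Xcl1.

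Markers of the cells that these chemokines are known from were read beside them. All 8 measured CD4 T cell markers were above the lowest array median in every group, and all 5 Treg markers were higher in Treg than in Teff cells under either treatment and in control cells. The sort itself used the Foxp3 reporter. In Treg cells no CD4 T cell marker passed against control with either treatment. In Teff cells 3 of 8 were lower with anti-CD3-CD28, where 9.75% of all genes were, and 7 of 8 with OX40L-JAG1, where 26.9% were. Of 11 measured platelet and megakaryocyte markers (14 listed, Ppbp and Pf4 not among them), 1 was higher in OX40L-JAG1 Treg than in control Treg cells and 1 in anti-CD3-CD28 Treg cells, in both cases Itgb3 (integrin beta 3), by 1.71 ± 0.21 (adjusted p = 0.00202) and 3.18 ± 0.21 (6.98e-06). Over all genes 0.996% were higher in OX40L-JAG1 Treg and 8.08% in anti-CD3-CD28 Treg cells. Itgb3 lay between 7.26 and 10.56 over the 12 arrays, and activated T cells are also known to make it. Clec1b and Tubb1, a platelet lectin receptor and a platelet tubulin, were under the lowest array median in all 6 groups. Another 4, F2rl3, Gp9, Itga2b and Itgb3, were above that median in all 6. With Itgb3 left aside, the group means of a marker spanned from 0.31 (Gp5) to 1.87 (Treml1). The summed linear intensity of the 11 markers was 1757 to 1784 in anti-CD3-CD28 Treg, 847 to 929 in OX40L-JAG1 Treg and 459 to 487 in control Treg cells, and 1785 to 1888 in anti-CD3-CD28 Teff, 781 to 782 in OX40L-JAG1 Teff and 732 to 783 in control Teff cells. Itgb3 made up 82.7% to 83.1% of the sum in anti-CD3-CD28 Treg and 33.4% to 35.1% in control Treg cells. The other 10 markers summed to 301.1 to 303.8 in anti-CD3-CD28 Treg, 335.8 to 371.5 in OX40L-JAG1 Treg and 305.8 to 316.5 in control Treg cells, and to 379.4 to 394.2 in anti-CD3-CD28 Teff, 472.2 to 565 in OX40L-JAG1 Teff and 302 to 323 in control Teff cells. In Teff cells, 3 of the 11 were higher with anti-CD3-CD28 (Itgb3, Selp and Itga2b), where 5.44% of all genes were higher. With OX40L-JAG1 6 were higher (Clec1b, Treml1, Gp6, Selp, Vwf and Itga2b, all named to account for the count), Clec1b by 1.35 ± 0.28 (adjusted p = 0.00299) at a level under the lowest array median, and Itgb3 was lower, where 20.0% of all genes were higher and 26.9% lower. The part of platelets in the values of Ppbp and Pf4 was not tested.

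Some myeloid markers were higher in the groups where Ccl17 rose. The counts that follow stand beside unlike shares over all genes. OX40L-JAG1 cells against control had 0.996% higher and 0.559% lower in Treg cells, and 20.0% higher and 26.9% lower in Teff cells. With anti-CD3-CD28 the shares were 8.08% higher and 1.97% lower in Treg cells, and 5.44% higher and 9.75% lower in Teff cells. Of 14 measured myeloid and dendritic cell markers, 4 were higher in OX40L-JAG1 Treg than in control Treg cells: Lyz2 (lysozyme, by 4.39 ± 0.38), Fcer1g (3.34 ± 0.38), Mpeg1 (2.36 ± 0.32) and Itgam (1.22 ± 0.24). The summed linear intensity of the 14 was 546 to 570 in anti-CD3-CD28 Treg, 1510 to 1695 in OX40L-JAG1 Treg and 530 to 556 in control Treg cells, and 595 to 613 in anti-CD3-CD28 Teff, 1295 to 3430 in OX40L-JAG1 Teff and 511 to 543 in control Teff cells. Itgax, Cd14, Flt3 and Siglech were under the lowest array median in all 6 groups. In OX40L-JAG1 Teff cells 8 of the 14 were higher than in control Teff cells, and in anti-CD3-CD28 cells against control 1 was higher (Mpeg1) and 1 lower (Siglech) in Treg cells, and 1 lower (Itgam) in Teff cells. With OX40L-JAG1, 6 of 12 neutrophil markers were higher in Treg cells, and 9 were higher and 1 lower in Teff cells. Of 9 basophil and mast cell markers, 5 were higher with OX40L-JAG1 in Treg cells, and 6 higher and 1 lower in Teff cells. In anti-CD3-CD28 cells against control, 1 neutrophil marker was higher in Treg cells (Ltf) and 3 were lower in Teff cells, while no basophil or mast cell marker was higher in either and 1 (Kit) was lower in Teff cells. Whether these markers bear on the rises of Ppbp, Ccl3 and Ccl22 in those cells was not tested. The summed neutrophil markers reached 320 to 323 in anti-CD3-CD28 Treg, 1745 to 2113 in OX40L-JAG1 Treg and 268 to 277 in control Treg cells, and 280 to 314 in anti-CD3-CD28 Teff, 4500 to 9147 in OX40L-JAG1 Teff and 725 to 743 in control Teff cells. The summed basophil and mast cell markers were 146 to 153 in anti-CD3-CD28 Treg, 875 to 953 in OX40L-JAG1 Treg and 148 to 163 in control Treg cells, and 231 to 249 in anti-CD3-CD28 Teff, 1513 to 3221 in OX40L-JAG1 Teff and 376 to 378 in control Teff cells. Of the other lists, B cell markers (8 measured) passed against control in no case in Treg cells, and in Teff cells 5 were lower with anti-CD3-CD28, where 9.75% of all genes were, and 2 with OX40L-JAG1, near the 26.9% over all genes. Of 9 CD8 T and NK cell markers, 1 was lower in OX40L-JAG1 Treg and none changed in anti-CD3-CD28 Treg cells, and 1 was higher in anti-CD3-CD28 Teff and 3 lower in OX40L-JAG1 Teff cells, also near that share. Of 5 erythroid markers none passed in Treg cells, and 3 were lower in Teff cells with each treatment. Replicate 1 of OX40L-JAG1 Teff was the higher of the pair for 8 of the 10 chemokines, Ccl1 and Ccl22 being the exceptions. It was also the higher for the mean of every marker list except that of platelets (5.67 against 5.71). This includes the myeloid (6.44 against 5.71) and neutrophil lists (8.30 against 7.30), and equally the CD4 T cell list (9.39 against 8.73). The part of the cells of any of these lists in the chemokine differences was not tested.

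**Figure D5:**
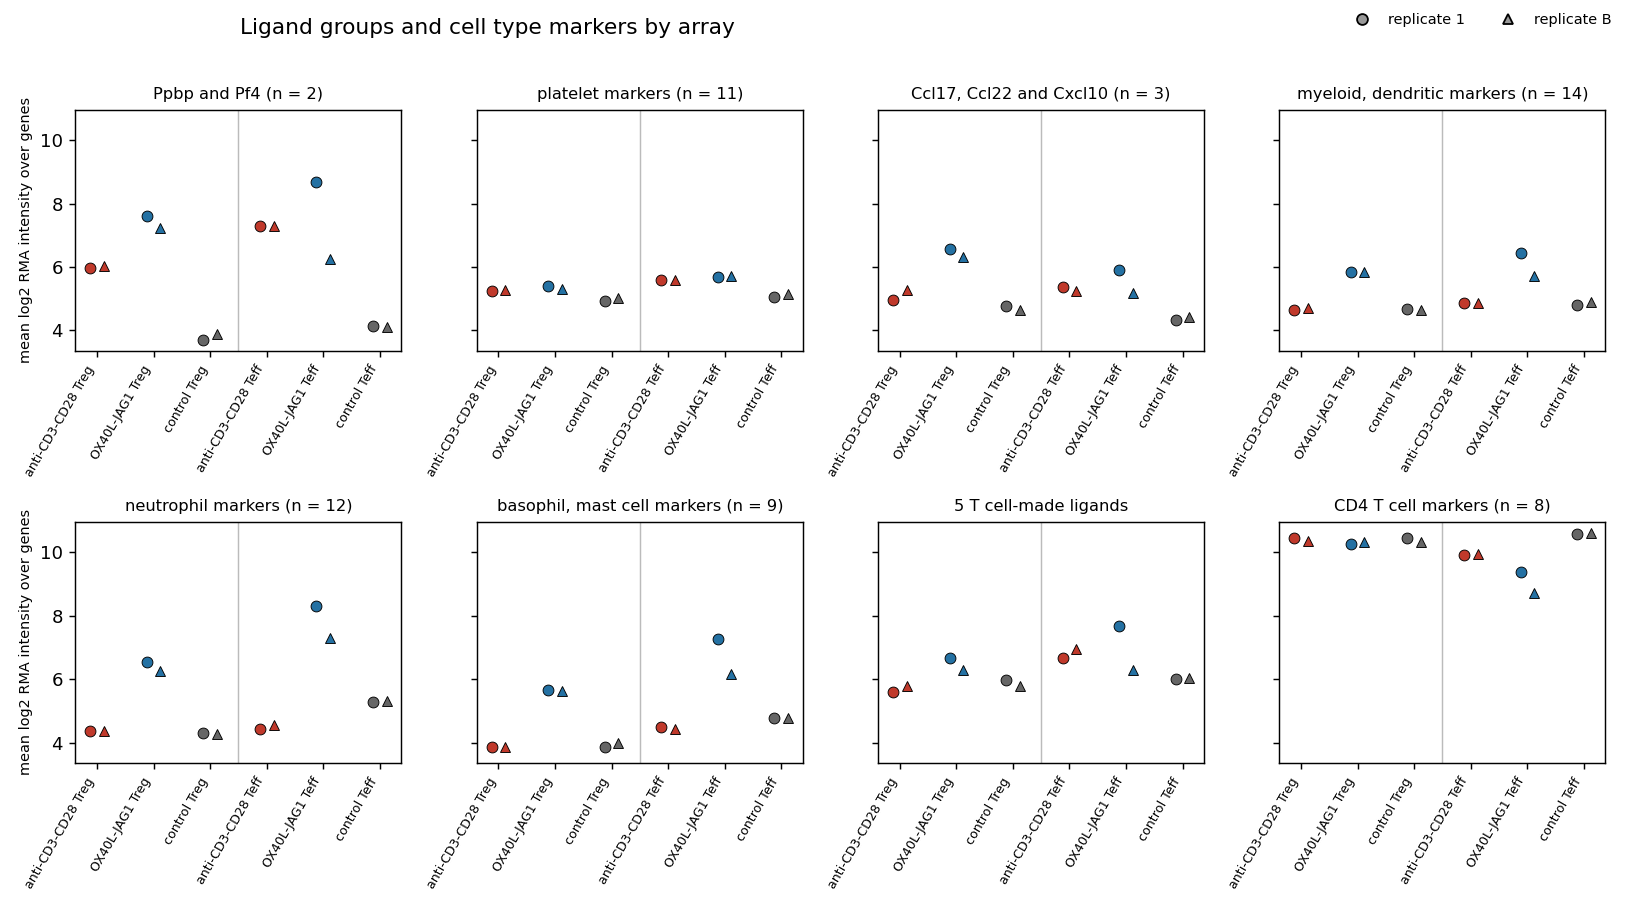
Mean log2 intensity over the genes of each chemokine group and of the marker lists on the 12 arrays, circles for replicate 1 and triangles for replicate B. The mean of Ppbp and Pf4 lies between 3.71 and 8.70 and that of the platelet markers between 4.94 and 5.71, and the neutrophil and the basophil and mast cell means are highest on the OX40L-JAG1 arrays in each cell type.

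Of 28 other chemokine ligands listed, 26 were measured, and 10 had group means under the lowest array median in all 6 groups. In OX40L-JAG1 Treg cells 1 of the 26 was higher than in control Treg cells: Ccl9 (a myeloid chemokine, MIP-1-gamma), with 7.59 and 7.79, against 5.44 and 5.24 in control Treg cells (2.35 ± 0.35, adjusted p = 0.00552), where 0.996% of all genes were higher. No ligand of the list passed in anti-CD3-CD28 Treg cells against control. Against OX40L-JAG1 Treg cells Ccl9 (-3.05 ± 0.35, adjusted p = 0.000323) and the myeloid chemokine Ccl6 (-2.91 ± 0.61, 0.0149) were lower, where 1.18% of all genes were. Anti-CD3-CD28 Teff cells had 1 higher than control, where 5.44% of all genes were higher. It was Cxcl3, by 0.88 ± 0.26 (0.042) at a level under the lowest array median. In OX40L-JAG1 Teff cells 10 of the 26 were higher and none lower, where 20.0% of all genes were higher and 26.9% lower. The largest differences were those of Ccl6 (3.92 ± 0.61), Ccl9 (2.47 ± 0.35) and Cxcl2 (1.13 ± 0.31), the last of them at levels under the lowest array median in all 6 groups. Cxcl5 and Cxcl3 flank Ppbp and Pf4 and are named for that, after their values were seen. In OX40L-JAG1 Treg cells Cxcl5 measured 3.21 and 3.46, against 3.46 and 3.21 in control Treg cells. Cxcl3 measured 3.08 and 2.58, against 2.57 and 2.73 in control Treg cells. Neither passed the test there.

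Of 7 measured receptors of these ligands, 3 were higher in anti-CD3-CD28 Treg cells than in control Treg cells: Ccr8, the receptor of Ccl1, by 1.42 ± 0.19 (adjusted p = 0.000552), Cxcr2, that of Ppbp products, by 1.29 ± 0.20 (0.00161) and Ccr4, that of Ccl17 and Ccl22, by 1.06 ± 0.25 (0.019). In OX40L-JAG1 Treg cells Ccr8 fell by 1.51 ± 0.19 (0.00225) and Ccr4 fell by 1.37 ± 0.25 (0.0198), and no other of the 7 passed. Over all genes 8.08% were higher in anti-CD3-CD28 Treg and 0.559% lower in OX40L-JAG1 Treg cells. In Teff cells against control Ccr8 and Ccr4 were likewise higher with anti-CD3-CD28, by 3.16 ± 0.19 and 2.13 ± 0.25. Cxcr3, the receptor of Cxcl10, was lower (-0.71 ± 0.20, adjusted p = 0.0331), where 5.44% of all genes were higher and 9.75% lower. With OX40L-JAG1, Ccr8 (-0.63 ± 0.19), Ccr4 (-1.06 ± 0.25) and Cxcr3 (-0.81 ± 0.20) were lower. Xcr1 (0.91 ± 0.24), Cxcr2 (0.82 ± 0.20) and Ccr1 (1.58 ± 0.35, under the lowest array median) were higher. Over all genes 20.0% were higher and 26.9% lower. Every receptor that passed in Teff cells is named here.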

How the data were processed

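The authors deposited log2 intensities of 12 whole-transcript arrays, made with RMA (background correction, quantile normalisation and summary of probes to 1 value per row) per the submitters' processing notes. The RMA version and the genome build of the array design are not given in the sources used here. RMA compresses differences of dim genes and sets the probe values of all arrays to 1 distribution, so only relative levels are kept. The summarised values of the tested genes were not on 1 distribution. Their array medians ran from 4.87 to 5.17 and their SDs over genes from 1.49 to 2.19. Of 41345 rows, 23521 had 1 gene symbol, 1814 had several and 16010 none. Where a gene had several rows, that of highest average level was kept, which left 22180 genes. Levels of different genes were not compared.

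Groups were compared in 9 pairs and 2 interactions with limma 3.58.1 in R 4.3.3, with 1 mean per group, 6 residual degrees of freedom, a moderated two-sided test and Benjamini-Hochberg adjustment over all genes of a comparison (threshold 0.05). The fit was tested on simulated data. The lowest array median served as a bound for dim signal, since no detection call was used, and was chosen with results known. The members and lists were chosen with earlier results of these data known. All 10 members are named, with at most 4 passing genes of a list per comparison by size of change, and the 3 genes most like each member whose group means span at least 2. The replicate labels do not pair the samples: correlations of the deviations of same-labelled arrays ran from -0.07 to 0.18 over 15 pairs of groups. The alternatives were 10 other settings and each array left out in turn.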

Additional observations from a re-analysis of the deposited data

Results flagged for a closer look

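Of the 10 chemokine genes, 2 had responses that differed between Treg and Teff cells by the interaction term of the limma fit. For Ccl4 the OX40L-JAG1 response of Treg cells minus that of Teff cells was -1.59 log2 units (SE 0.53, adjusted p = 0.0396), with Treg responses of 0.11 and Teff responses of 1.71. For the same gene the anti-CD3-CD28 response of Treg cells minus that of Teff cells was -1.80 (SE 0.53, adjusted p = 0.0454), with -0.09 in Treg and 1.71 in Teff cells. For Cxcl10 the anti-CD3-CD28 value was -1.47 (SE 0.38, adjusted p = 0.0269), with -0.40 in Treg and 1.07 in Teff cells. Interactions passed for 31.5% of all genes with OX40L-JAG1 and for 13.1% with anti-CD3-CD28. Quantile normalisation ended the anti-CD3-CD28 calls of Ccl4 (adjusted p = 0.0634) and Cxcl10 (0.104). The OX40L-JAG1 call of Ccl4 was lost with a common median (0.0803), array weights (0.118) and only the arrays compared (0.0698).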

How the results depend on the processing

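No change of scaling turned the direction of a called difference. Averaging the rows of a gene could not alter the members' values, since each has 1 row. The replicate block, added to the fit although no pairing was found, gave 1 gene, against 2, for the anti-CD3-CD28 interaction, where Ccl4 was lost (adjusted p = 0.0556). It added Ccl5 in OX40L-JAG1 minus control Teff cells (7, against 6, adjusted p = 0.0451) and in anti-CD3-CD28 minus OX40L-JAG1 Teff cells (3, against 2, adjusted p = 0.0366), and changed no other call. Quantile normalisation gave 3 members called, against 5, in OX40L-JAG1 minus control Treg cells, 4, against 2, in anti-CD3-CD28 minus OX40L-JAG1 Teff cells, 2, against 1, for the OX40L-JAG1 interaction and 0, against 2, for the anti-CD3-CD28 interaction. A common median gave 0, against 2, in anti-CD3-CD28 Treg minus Teff cells and 1 for the anti-CD3-CD28 interaction, and all rows gave 1 and 1. Without dim genes the counts were 5, against 3, in anti-CD3-CD28 minus control Treg cells, 2, against 1, in anti-CD3-CD28 minus OX40L-JAG1 Treg cells, 4 in the same comparison of Teff cells, 1, against 0, in control Treg minus Teff cells and 2 for the OX40L-JAG1 interaction. Trend and robust shrinkage gave 1 in control Treg minus Teff cells.

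Array weights, which set the OX40L-JAG1 Teff arrays at 0.169, gave 7 in anti-CD3-CD28 minus control Treg cells, 7 against OX40L-JAG1 Treg cells, 0 in anti-CD3-CD28 minus OX40L-JAG1 Teff cells, 2 in control, 1 (against 3) in OX40L-JAG1 and 6 in anti-CD3-CD28 Treg minus Teff cells, and 5 for the anti-CD3-CD28 interaction. With only the arrays compared in the fit these counts were 7, 7, 0, 3, 0, 6 and 6, with 3 (against 6) in OX40L-JAG1 minus control Teff cells and 0 for the OX40L-JAG1 interaction. Without the OX40L-JAG1 Teff arrays they were 7, 7, 3, 6 and 6 where those arrays were not needed.

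Leaving out 1 array at a time gave 2 to 5 in OX40L-JAG1 minus control Treg cells, 2 to 7 in anti-CD3-CD28 minus control Treg cells, 0 to 7 against OX40L-JAG1 Treg cells, 3 to 8 in anti-CD3-CD28 minus control Teff cells and 0 to 6 against OX40L-JAG1 Teff cells. It gave 0 to 3 in control, 1 to 6 in OX40L-JAG1 and 0 to 6 in anti-CD3-CD28 Treg minus Teff cells, and 0 to 6 for each interaction. A left-out array leaves its group with 1, which is assumed to vary like the other groups. Signs turned for Ppbp and Pf4 on leaving out 1 OX40L-JAG1 Teff array. Anti-CD3-CD28 minus OX40L-JAG1 Teff was 0.77 without replicate 1 and -1.35 without replicate B for Ppbp, and 1.31 and -1.48 for Pf4. OX40L-JAG1 Treg minus Teff was 1.34 and -0.78 for Ppbp, and 1.03 and -1.76 for Pf4. The OX40L-JAG1 interaction was 1.39 and -0.73 for Ppbp, and 1.62 and -1.17 for Pf4. The cause of these shifts was not tested. Dim signal limits Ccl1, Ccl17 and the control levels of Ppbp, Pf4 and Ccl22.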
